A study of Mus musculus with 15 samples.

Results

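Most of a set of DNA replication and mismatch repair genes fell in mouse macrophages stimulated with dsHMGB1, LPS or LPS/IFNγ, and a few of them rose. The genes described here are 33 listed S-phase, replication fork and repair genes, found by matching their mouse symbols to the Ensembl identifiers of the count table. All 33 were in the table of 51763 genes and all 33 were among the 16919 genes that passed the filter on low counts and were tested. They were sorted by role into the MCM2-7 helicase (6 genes), the helicase partners and loading factors (6), the polymerases and primase (4), the sliding clamp and its loader (4), nucleotide supply (3), lagging strand synthesis and repair (7) and chromatin assembly and maintenance (3).

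A dividing cell copies its genome by loading the MCM2-7 ring onto origins in G1 phase and activating it in S phase, when DNA polymerases held by the PCNA clamp follow the unwinding fork. Mismatch repair, in which MutS proteins such as MSH6 find mispaired bases and MutL proteins such as PMS2 direct their removal, works behind the fork. Many of these genes share transcription by E2F factors, so their mRNAs are widely used as a sign of cells in cycle. Bone marrow-derived macrophages (BMDMs) divide in culture with macrophage colony-stimulating factor (M-CSF), and LPS is known to arrest that growth.

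The data were RNA-seq read counts from 15 libraries of wild-type BMDMs, 3 in each of 5 conditions. The cells of 5 female C57BL/6NTac mice aged 8 to 10 weeks were matured with M-CSF in 10% serum and pooled. They were then moved to medium with 1% serum, for which the methods list no M-CSF, and rested overnight. The 3 libraries of a condition were thus parallel cultures of the same pool, and every p-value here measures the spread between cultures, not between mice. For that reason the study itself set its p-values aside and used a log2 fold change above 2 or below -2. The cells were held for 24 h with PBS as the unstimulated control, with the fully reduced form of the nuclear protein HMGB1 (frHMGB1, 5 µg/mL), with its disulfide form (dsHMGB1, 5 µg/mL), which acts through the LPS receptor TLR4, with bacterial lipopolysaccharide (LPS-EK, 1 µg/mL), or with LPS plus interferon-γ (LPS/IFNγ, the classical M1 stimulus). For the LPS/IFNγ cells the IFNγ dose was 20 ng/mL, whereas the LPS dose is given as 1 µg/mL in one label and 100 ng/mL in the protocol, so LPS and LPS/IFNγ may differ in LPS dose as well as in IFNγ.

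The libraries held between 40934540 and 80925478 counts, and the 33 genes together took 0.0361% to 0.0676% of them. The 10 macrophage markers summed to 14573 to 28208 CPM (counts scaled to the library total) in every library, against at most 5.56 CPM for 8 neutrophil markers, 0.152 CPM for 6 lymphocyte markers and 0.351 CPM for 5 erythroid markers. A set of 6 fibroblast markers summed to 118 to 282 CPM, with the widest range within PBS. Of the 5 that were tested, 1, 4 and 4 were called higher than PBS after dsHMGB1, LPS and LPS/IFNγ. Of all tested genes, 23.3%, 26.7% and 29% were called higher. In CPM the markers summed to 189 to 239 after dsHMGB1, 210 to 218 after LPS and 220 to 223 after LPS/IFNγ. These sums lay inside the PBS range of 118 to 282, and those after frHMGB1 were 245 to 247. The part of the fibroblast markers in the results was not tested. PBS replicate 3 stood apart: its profile correlated with the other PBS libraries at r = 0.933 to 0.938 on the log2 scale, whereas all other pairs of the same condition were at 0.987 or above. In that library 5 of the 33 genes differed more than 2-fold from the mean of the other PBS libraries, so the results that rest on it are given with and without it. The share of counts on processed pseudogenes was 1.49% in PBS replicate 3, 0.481% to 0.560% in the frHMGB1 and LPS libraries and 0.684% to 0.833% in the other 8 libraries, and its part in the results was not tested.

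Values of single libraries below are normalized counts, that is counts divided by a DESeq2 size factor, listed in the order of replicate 1, 2 and 3. Changes are DESeq2 log2 fold changes with their standard errors, and a gene was called higher or lower when its Benjamini-Hochberg adjusted p in edgeR's quasi-likelihood test, adjusted over all 16919 genes, was under 0.05. The error beside a fold change is 1 SE. Changes from refits, such as those without a library or with library totals as the only scaling, are edgeR log2 fold changes. Such a value can differ from the DESeq2 value by the method as well as by the refit. In a bulk sample, fewer cells in S phase and less mRNA per cell cannot be told apart.

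Compared with PBS, dsHMGB1 lowered 22 of the 33 genes and raised 2, at a median log2 fold change of -0.79 against -0.10 over all genes tested. Of all tested genes, 24.2% were called lower and 23.3% higher in that comparison. LPS lowered 22 and raised 5, with a median of -1.02 against -0.21 over all genes, of which 36.2% were called lower and 26.7% higher. LPS/IFNγ lowered 27 and raised 4, with a median of -1.21 against -0.12, where 31.2% of all genes were called lower and 29% higher. The share of the 33 genes called lower was thus above the share of all genes in each of these stimulations, and the share called higher was below it. The 3 comparisons share the PBS libraries. Below a log2 fold change of -2, the cutoff of the study, were 0, 3 and 8 of the 33 genes after dsHMGB1, LPS and LPS/IFNγ. The largest rises were 1.45, 1.74 and 1.60.

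**Figure D1:**
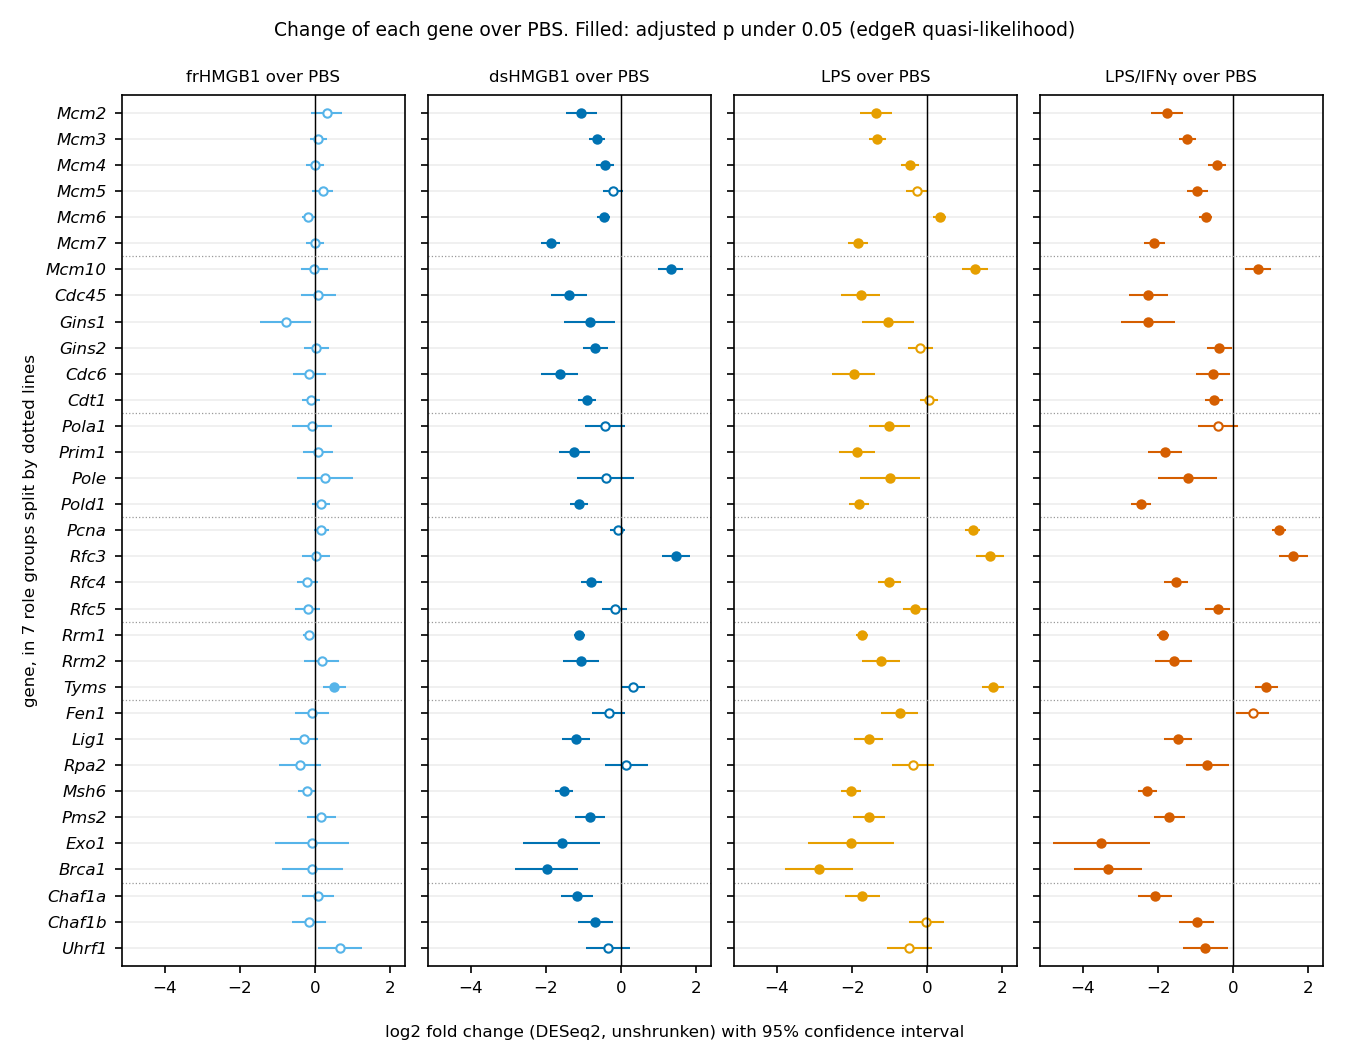
Log2 fold change over PBS (x axis) of each of the 33 genes (rows, in 7 role groups) for the 4 stimulations, with 95% confidence intervals; filled points passed edgeR's test at an adjusted p under 0.05. The frHMGB1 points lie near 0 with 1 of 33 filled, and in the other panels most points lie to the left of 0, except that filled points of Mcm10, Rfc3, Pcna and Tyms and an unfilled one of Fen1 lie to the right after LPS/IFNγ (Mcm10 there was at -0.020 with library totals as the only scaling), and Mcm6 lies to the right after LPS (-0.36 with that scaling).

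After frHMGB1, 0 of the 33 genes were called lower and 1 higher, where 5.69% and 1.31% of all tested genes were called. Among the 13025 protein-coding genes tested, the class of all 33, these shares were 0.422% and 1.44%. The gene called higher was Tyms, the thymidylate synthase gene, at 159, 154 and 156 against 105, 103 and 124 in PBS (log2 fold change 0.51 ± 0.16, adjusted p = 0.0444). That call was lost in 6 of the 8 alternative settings. The median change of the 33 genes was -0.0016, with a range from -0.78 for Gins1 to 0.66 for Uhrf1, neither of which passed the test. Uhrf1, a reader of hemimethylated DNA, measured 217, 187 and 215 after frHMGB1 and 157, 172 and 59.7 in PBS, where replicate 3 alone was far below the others. Without PBS replicate 3, 3 genes were called higher after frHMGB1, Tyms, Pcna and Rfc3, at log2 fold changes of 0.58 (adjusted p = 0.0143), 0.29 (adjusted p = 0.00211) and 0.34 (adjusted p = 0.0087), and none was called lower. In that refit 8.41% of all tested genes were called higher and 9.09% lower. With all libraries, 1 of the 33 genes was lower and 3 were higher at an unadjusted p under 0.05. Of the 16919 genes tested, 2745 had such a p. DESeq2 called 0 of the 33 genes lower and 1 higher.

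The redox forms of HMGB1 were also compared directly. Relative to frHMGB1, dsHMGB1 lowered 23 of the 33 and raised 2, Mcm10 and Rfc3, where 23.1% of all tested genes were called lower and 27.7% higher. Of the protein-coding genes tested, 26.7% were called lower and 24% higher. The median of the 33 was -0.74, against 0.02 over all genes. The fold changes compare these 6 libraries with each other, but the test shares its spread with all 15. Without PBS replicate 3 it called 26 lower and 3 higher, where 32.9% and 35.8% of all tested genes were called. With all libraries, Brca1 fell the most in dsHMGB1 over frHMGB1 (log2 fold change -1.91 ± 0.43, adjusted p = 0.0022), followed among the called genes by Mcm7 (log2 fold change -1.88 ± 0.13, adjusted p = 1.85e-08) and Cdc6 (log2 fold change -1.49 ± 0.25, adjusted p = 0.000189). Pcna, not called in dsHMGB1 over PBS, was lower than in frHMGB1 (log2 fold change -0.26 ± 0.10, adjusted p = 0.0121), as were Mcm5 (log2 fold change -0.41 ± 0.14, adjusted p = 0.02) and Uhrf1 (log2 fold change -1.01 ± 0.30, adjusted p = 0.0121). The call of Mcm5 was lost in 3 of 15 refits without 1 library, with an adjusted p of at most 0.0882.

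**Figure D2:**
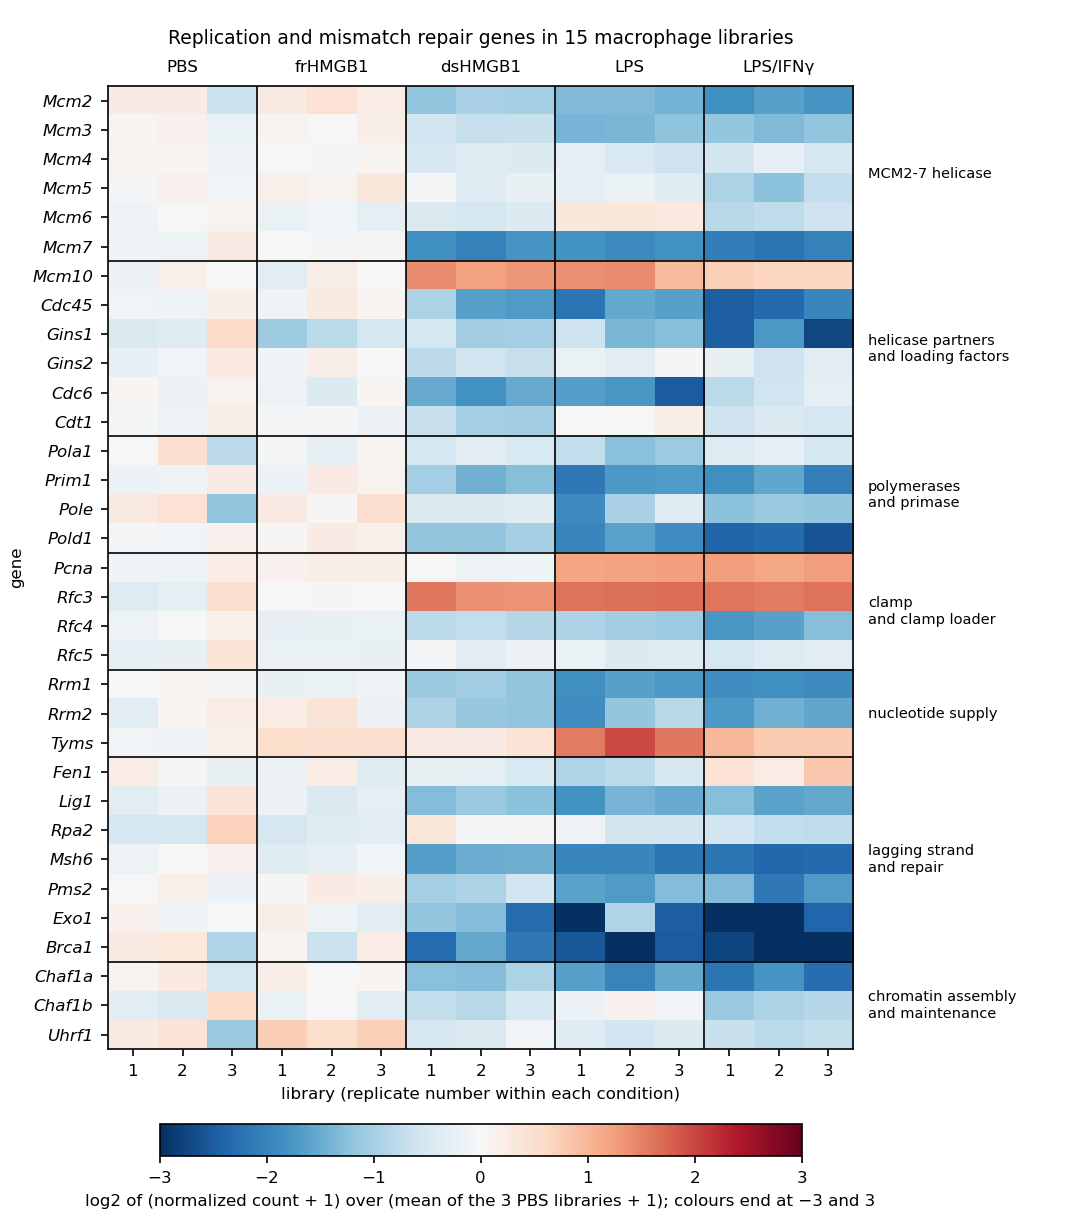
Level of each gene in each of the 15 libraries as log2 of the normalized count plus 1 over the mean of the PBS libraries plus 1, with rows grouped by role and columns by condition. PBS replicate 3 differs from its group in Uhrf1, Pole, Brca1 and Rpa2, and the rows of Mcm10, Rfc3, Pcna and Tyms turn red in stimulated libraries while most others turn blue (with library totals as the only scaling, Mcm10 after LPS/IFNγ was at -0.020 over PBS).

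Scaled by length, the clamp gene Pcna was the most abundant of the 33 in every condition, at 273 ± 44.0 TPM (counts scaled by gene length and library total, mean ± SD, n = 3) in PBS and 449 ± 13.8 after LPS/IFNγ. Cdt1, which brings MCM2-7 to origins, was the next in all 5 conditions (55.7 ± 10.9 TPM in PBS), and Exo1, a mismatch repair exonuclease, was the lowest in all 5 (0.291 ± 0.0846 TPM in PBS). With the length of the longest transcript in place of the merged exons, Pcna and Exo1 kept these places in all 5 conditions and Rfc3 came ahead of Cdt1 after dsHMGB1. The number of the 33 genes above 10 TPM, by merged exons, was 10 in PBS, 12 after frHMGB1, 8 after dsHMGB1, 4 after LPS and 4 after LPS/IFNγ. TPM is scaled to library totals, which as the only scaling shifted the median of all genes by -0.35, -0.63 and -0.66 after the last 3. Mcm6, called higher after LPS, went from 31.2 to 24.8 TPM there. The part of this scaling in the numbers above 10 TPM was not tested. Rfc3 moved from rank 11 of 33 by TPM in PBS to rank 3, 4 and 3 after dsHMGB1, LPS and LPS/IFNγ, while Msh6 moved from rank 6 to rank 15 after LPS.

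The promoters of these genes were read from RefSeq windows of 300 bases, 250 before to 50 after the start (GRCm38.p6), which held 28 of the 33 genes. Letters of the E2F type, GCGGGAA or GCGCGAA on either strand, were in the window of 19 of the 28 genes (67.9%), against 6.86% of all 27025 genes in the table. The NF-Y letters CCAAT were also in 67.9%, against 41.1% of all genes, and the cell cycle homology (CHR) letters TTTGAA in 10.7%, against 20.2%. After LPS/IFNγ, E2F-type letters were in 16 of 22 genes with a window called lower, 1 of 4 called higher (Rfc3) and 2 of 2 not called. After LPS these were 12 of 18, 2 of 5 and 5 of 5, and after dsHMGB1 13 of 18, 1 of 2 and 5 of 8. The windows of Mcm10, Pcna and Tyms held none, nor did that of Brca1, which fell. A match is a description of the letters and not a bound site. To show the arrangement, 200 bases of 6 of these windows, 170 before to 30 after the start, are printed with the E2F-type letters in capitals, for Mcm7, Rrm1 and Msh6, which fell in 3 stimulations, Rfc3, which rose in 3, Mcm6, which went both ways, and Pcna, which rose after LPS and LPS/IFNγ and has no such letters.
Mcm7 (chr5:138171854-138172053, - strand): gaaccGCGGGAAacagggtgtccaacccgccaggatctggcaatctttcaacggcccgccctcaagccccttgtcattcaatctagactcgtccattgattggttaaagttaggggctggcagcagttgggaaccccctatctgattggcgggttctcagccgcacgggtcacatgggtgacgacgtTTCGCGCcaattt
Rrm1 (chr7:102441525-102441724, + strand): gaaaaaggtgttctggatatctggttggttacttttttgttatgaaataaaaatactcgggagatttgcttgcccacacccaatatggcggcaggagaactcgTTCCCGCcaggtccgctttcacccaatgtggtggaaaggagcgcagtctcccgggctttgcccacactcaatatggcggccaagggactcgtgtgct
Msh6 (chr17:87974880-87975079, + strand): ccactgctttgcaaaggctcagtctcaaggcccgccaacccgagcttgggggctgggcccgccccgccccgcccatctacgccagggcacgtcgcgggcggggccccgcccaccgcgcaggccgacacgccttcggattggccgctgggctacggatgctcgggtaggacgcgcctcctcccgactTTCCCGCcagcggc
Rfc3 (chr5:151651179-151651378, - strand): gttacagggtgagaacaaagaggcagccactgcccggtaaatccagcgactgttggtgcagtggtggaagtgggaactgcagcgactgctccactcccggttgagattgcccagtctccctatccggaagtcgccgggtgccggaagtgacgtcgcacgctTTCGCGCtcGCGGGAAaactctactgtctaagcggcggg
Mcm6 (chr1:128359676-128359875, - strand): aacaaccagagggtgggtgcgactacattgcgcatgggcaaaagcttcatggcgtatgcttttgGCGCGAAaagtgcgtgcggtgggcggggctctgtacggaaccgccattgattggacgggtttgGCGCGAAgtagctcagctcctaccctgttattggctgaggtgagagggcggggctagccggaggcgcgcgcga
Pcna (chr2:132253151-132253350, - strand): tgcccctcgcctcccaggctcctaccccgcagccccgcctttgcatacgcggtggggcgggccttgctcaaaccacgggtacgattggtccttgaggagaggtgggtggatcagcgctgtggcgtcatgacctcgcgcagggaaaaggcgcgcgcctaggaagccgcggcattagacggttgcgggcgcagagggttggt
The printed windows held 2 matches for Mcm7, Rfc3 and Mcm6, 1 for Rrm1 and Msh6 and 0 for Pcna. Counted from the start as base 1, the Rfc3 matches began at -9 and 1, those of Mcm7 at -165 and 18 and those of Mcm6 at -106 and -43. A further Mcm6 match began at 25 and ran past the printed end, so its letters are not in capitals.

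The MCM2-7 helicase, the ring that unwinds DNA at the fork, fell in all 6 subunits after LPS/IFNγ, with a median log2 fold change of -1.09. After dsHMGB1, 5 of 6 subunits fell (median -0.55), and after LPS 4 fell and 1 rose (median -0.89). Mcm7 fell the most. It measured 652, 639 and 840.0 in PBS and 709.8, 685 and 726 after frHMGB1, then 198, 173 and 207 after dsHMGB1, 203, 189.8 and 200.0 after LPS and 168, 154 and 174 after LPS/IFNγ. The 9 libraries of those last conditions were all below the 6 others, at log2 fold changes of -1.88 ± 0.13 (adjusted p = 1.86e-08), -1.84 ± 0.14 (adjusted p = 1.15e-08) and -2.10 ± 0.14 (adjusted p = 3.47e-09). Mcm4 fell the least after LPS/IFNγ, from 993, 976 and 841 in PBS to 663, 715 and 706 after dsHMGB1, 767, 684 and 607 after LPS and 641, 789 and 649.8 after LPS/IFNγ, with log2 fold changes of -0.43 ± 0.12 (adjusted p = 0.0121), -0.45 ± 0.12 (adjusted p = 0.00366) and -0.44 ± 0.12 (adjusted p = 0.00706).

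Mcm6 went opposite ways in the stimulations. It measured 2077, 2251 and 2413 in PBS and 1970.2, 2113 and 1823 after frHMGB1. It was lower after dsHMGB1, at 1664, 1548 and 1690.5 (log2 fold change -0.46 ± 0.09, adjusted p = 0.000896), and lower after LPS/IFNγ, at 1267, 1322 and 1451 (log2 fold change -0.74 ± 0.09, adjusted p = 7.69e-06). After LPS alone it was higher, at 2847, 2852 and 2775 (log2 fold change 0.33 ± 0.09, adjusted p = 0.0199), and the 3 LPS libraries lay above all 12 others. With library totals as the only scaling, which shifts the median of all genes by -0.63 in the LPS comparison, the LPS change of Mcm6 turned to -0.36 (adjusted p = 0.00563). Mcm2 and Mcm3 fell in the 3 stimulations, Mcm2 at -1.06, -1.37 and -1.76 and Mcm3 at -0.65, -1.33 and -1.23 (log2 fold changes) after dsHMGB1, LPS and LPS/IFNγ. Mcm5 was called lower after LPS/IFNγ alone (log2 fold change -0.96 ± 0.14, adjusted p = 4.61e-05), with -0.21 after dsHMGB1 and -0.28 after LPS. Without PBS replicate 3, Mcm5 was also called lower after LPS, at -0.37 (adjusted p = 0.0175). In TPM, the subunits of this ring, which are assembled in equal numbers, spanned from 4.40 for Mcm2 to 31.2 for Mcm6 in PBS and from 1.01 to 24.8 after LPS.

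Of the 6 helicase partners and loading factors, 5 fell after dsHMGB1, 3 after LPS and 5 after LPS/IFNγ, while Mcm10 rose in each, with group medians of -0.87, -0.62 and -0.53. Mcm10, which acts when the loaded helicase is activated, measured 99.6, 125 and 111 in PBS and 88.7, 129 and 112 after frHMGB1. It reached 303, 261 and 279 after dsHMGB1, 293, 299 and 216 after LPS and 183, 176 and 175 after LPS/IFNγ, above every PBS and frHMGB1 library in each case, with log2 fold changes of 1.32 ± 0.17 (adjusted p = 3.52e-05), 1.27 ± 0.17 (adjusted p = 5.22e-05) and 0.67 ± 0.18 (adjusted p = 0.00639). The LPS/IFNγ change of Mcm10 was -0.020 with library totals as the only scaling.

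Cdc45 and the GINS subunits join MCM2-7 to form the active helicase. Cdc45 fell from 159.7, 155 and 194 in PBS to 87.2, 54.3 and 51.3 after dsHMGB1, 36.2, 58.3 and 54.4 after LPS and 29.7, 32.6 and 43.0 after LPS/IFNγ, with log2 fold changes of -1.40 ± 0.25 (adjusted p = 0.00034), -1.78 ± 0.27 (adjusted p = 3.12e-05) and -2.26 ± 0.27 (adjusted p = 3.89e-06). Gins1 fell after LPS/IFNγ to 31.8, 54.7 and 26.5 from 134, 142 and 272 in PBS (log2 fold change -2.27 ± 0.36, adjusted p = 6.71e-05). Its values were 86.6, 103 and 127 after frHMGB1, 127, 88.8 and 89.1 after dsHMGB1 and 118, 70.2 and 75.0 after LPS. PBS replicate 3 was the highest library for Gins1, and without it the dsHMGB1 change was -0.48 (adjusted p = 0.137) and the LPS change -0.70 (adjusted p = 0.0326). The LPS/IFNγ change without that library was -1.95 (adjusted p = 1.04e-05), against -2.22 for Cdc45. Gins2 fell after dsHMGB1 (log2 fold change -0.69 ± 0.17, adjusted p = 0.0021) and after LPS/IFNγ (log2 fold change -0.38 ± 0.17, adjusted p = 0.0355). Without PBS replicate 3 its LPS/IFNγ change by edgeR was -0.29 (adjusted p = 0.0703).

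The licensing factors Cdc6 and Cdt1, which load MCM2-7 onto origins, differed between the stimulations. Cdc6 fell from 91.8, 77.6 and 94.9 in PBS to 30.2, 24.2 and 30.3 after dsHMGB1 and 27.1, 25.4 and 14.7 after LPS, all below the PBS libraries, with log2 fold changes of -1.64 ± 0.25 (adjusted p = 9.12e-05) and -1.96 ± 0.29 (adjusted p = 1.49e-05). After LPS/IFNγ it stood at 49.8, 57.9 and 72.2, a smaller fall (log2 fold change -0.54 ± 0.23, adjusted p = 0.0493) whose adjusted p was 0.0547 without PBS replicate 3. Cdt1 fell from 2660.4, 2454 and 3062 in PBS to 1686, 1347 and 1316 after dsHMGB1 (log2 fold change -0.91 ± 0.12, adjusted p = 1.68e-05) and 1779.6, 2012 and 1932 after LPS/IFNγ (log2 fold change -0.51 ± 0.12, adjusted p = 0.000996), but was at 2702, 2739 and 3064 after LPS, overlapping the PBS values (log2 fold change 0.06 ± 0.12, adjusted p = 0.993; 95% confidence interval -0.18 to 0.30).

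All 4 polymerase and primase genes were called lower after LPS, 3 after LPS/IFNγ and 2 after dsHMGB1, with medians of -1.42, -1.52 and -0.78. Pold1, the catalytic subunit of DNA polymerase δ, had the lowest LPS/IFNγ change of the 4 and fell from 625, 617 and 706 in PBS to 285, 284 and 326 after dsHMGB1, 163, 212 and 178 after LPS and 122, 127 and 108 after LPS/IFNγ. The 4 groups did not overlap, at -1.12 ± 0.12 (adjusted p = 6.64e-06), -1.82 ± 0.14 (adjusted p = 3.35e-08) and -2.45 ± 0.14 (adjusted p = 2.27e-09). Prim1, the catalytic subunit of primase, fell too, with log2 fold changes of -1.25, -1.87 and -1.82 in the same order. Pola1, the catalytic subunit of DNA polymerase α, ranged from 158 to 392 in PBS (273, 392 and 158), with 193, 220.1 and 198 after dsHMGB1, 164, 115 and 129 after LPS and 211, 223 and 190.1 after LPS/IFNγ. Only the LPS fall of Pola1 was called with all libraries (log2 fold change -1.02 ± 0.28, adjusted p = 0.00378), and without PBS replicate 3, its lowest PBS library, the changes after dsHMGB1, LPS and LPS/IFNγ were -0.74 (adjusted p = 0.0011), -1.34 (adjusted p = 3.06e-06) and -0.75 (adjusted p = 0.00083). Pole, the leading strand polymerase ε, had the same lowest library, at 107, 119.8 and 38.7 in PBS. Its DESeq2 changes with all libraries were -0.42, -0.99 and -1.21 after dsHMGB1, LPS and LPS/IFNγ. Without PBS replicate 3 the edgeR changes of Pole were -0.79 (adjusted p = 0.0149), -1.40 (adjusted p = 0.000274) and -1.63 (adjusted p = 4.57e-05).

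Of the clamp and clamp loader genes, 2 were lower and 2 higher after LPS/IFNγ, with a median of 0.40. Pcna, the clamp that tethers polymerases to DNA and also serves DNA repair, measured 9428, 9386 and 11986 in PBS, 11182, 11816 and 11553 after frHMGB1 and 10196, 9165 and 9416 after dsHMGB1. It reached 23379.8, 23729.7 and 24145 after LPS and 24346, 22790.3 and 24454 after LPS/IFNγ, and these 6 libraries lay above all 9 others, with log2 fold changes of 1.21 ± 0.10 (adjusted p = 7.01e-08) and 1.22 ± 0.10 (adjusted p = 4.49e-08). The dsHMGB1 change of Pcna was not called (log2 fold change -0.10 ± 0.10, adjusted p = 0.348; 95% confidence interval -0.29 to 0.10). Rfc3, a subunit of the replication factor C complex that loads the clamp, rose in all 3, from 438, 479 and 812 in PBS and 580.5, 591 and 574 after frHMGB1 to 1726, 1495 and 1473 after dsHMGB1, 1781, 1822 and 1844 after LPS and 1756, 1696 and 1772 after LPS/IFNγ, with log2 fold changes of 1.45 ± 0.19 (adjusted p = 7.14e-06), 1.66 ± 0.19 (adjusted p = 1.61e-06) and 1.60 ± 0.19 (adjusted p = 1.72e-06).

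The other clamp loader subunits of the list were lower where called. Rfc4 fell from 178, 195 and 218 in PBS to 113, 117 and 108 after dsHMGB1, 103, 95.6 and 92.6 after LPS and 58.3, 63.1 and 80.4 after LPS/IFNγ, with log2 fold changes of -0.79 ± 0.14 (adjusted p = 0.000508), -1.01 ± 0.16 (adjusted p = 3.38e-05) and -1.53 ± 0.16 (adjusted p = 9.11e-07). Rfc5 fell less, at -0.33 after LPS and -0.41 after LPS/IFNγ, and its LPS change was -0.14 (adjusted p = 0.191) without PBS replicate 3. Among loader subunits outside the 33, Rfc1 (-0.73, -1.14 and -1.25 after dsHMGB1, LPS and LPS/IFNγ) and Rfc2 (-1.57, -2.28 and -2.18) also fell. These values of Rfc1 and Rfc2 were looked up after those of the listed genes had been seen. By TPM, Rfc3 stood at 9.78 and Rfc4 at 8.28 in PBS, and at 21.8 and 1.98 after LPS/IFNγ.

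**Figure D3:**
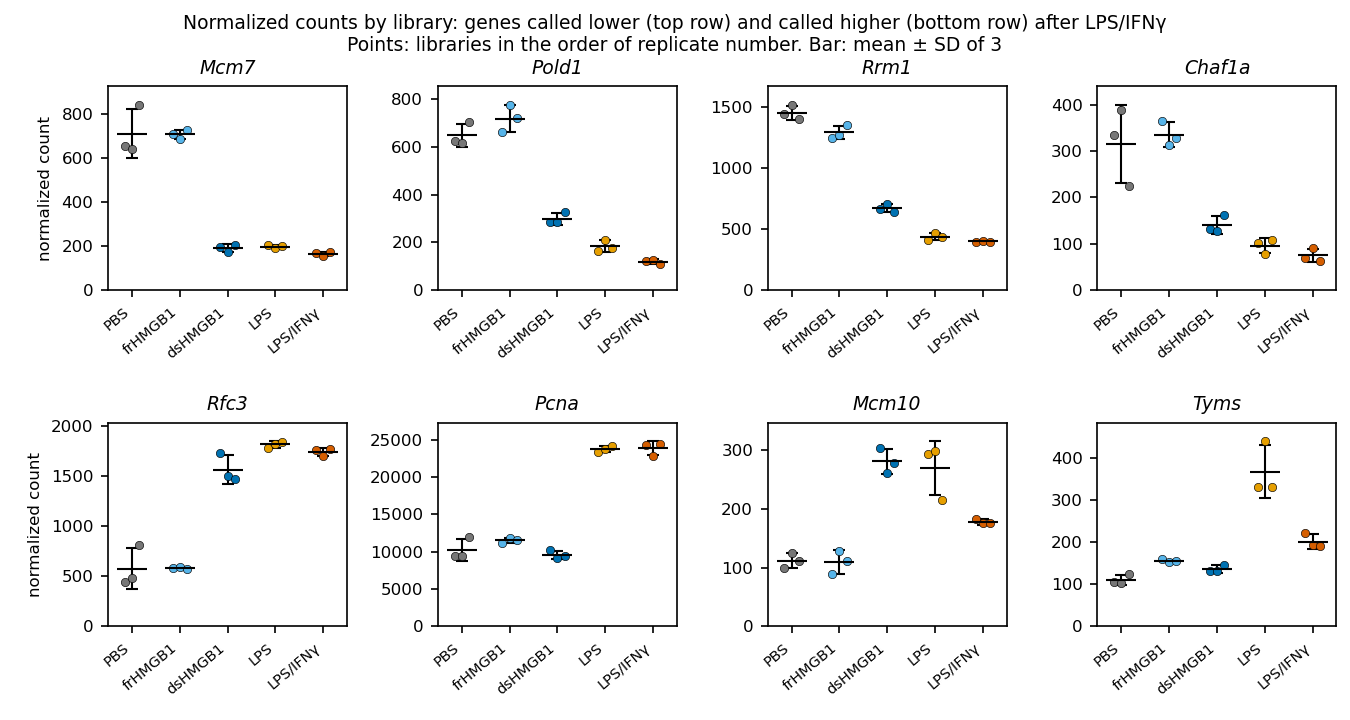
Normalized counts (y axis, from 0) in each library of the 5 conditions for 4 genes called lower and 4 called higher after LPS/IFNγ, with the mean and SD of 3. The dsHMGB1, LPS and LPS/IFNγ libraries lie below every PBS library in the top row, and Pcna after dsHMGB1 overlaps the PBS values while Rfc3 and Mcm10 are already raised there (with library totals as the only scaling, Mcm10 after LPS/IFNγ was at -0.020 over PBS).

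In nucleotide supply, both subunits of ribonucleotide reductase, which makes deoxyribonucleotides, fell while thymidylate synthase rose. Rrm1, the large subunit, measured 1440.5, 1515 and 1403 in PBS, 1246, 1270.3 and 1354 after frHMGB1, 666, 704 and 639.7 after dsHMGB1, 407, 468 and 438 after LPS and 397, 405 and 395 after LPS/IFNγ. Its changes were -1.12 ± 0.08 (adjusted p = 4.38e-07), -1.74 ± 0.08 (adjusted p = 2.85e-09) and -1.87 ± 0.08 (adjusted p = 1.57e-09). Rrm2, the small subunit, fell, with log2 fold changes of -1.08, -1.23 and -1.58. Tyms measured 105, 103 and 124 in PBS, 133, 131 and 147 after dsHMGB1, 331, 441 and 332 after LPS and 222, 193 and 192 after LPS/IFNγ. The LPS and LPS/IFNγ libraries were above all others, with log2 fold changes of 1.74 ± 0.15 (adjusted p = 3.05e-07) and 0.88 ± 0.16 (adjusted p = 0.000176), while the dsHMGB1 change was not called (log2 fold change 0.32 ± 0.16, adjusted p = 0.0983). With library totals as the only scaling the LPS/IFNγ change of Tyms was 0.19 (adjusted p = 0.246).

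The lagging strand and repair genes had the deepest median fall of the 7 role groups in each stimulation, -1.21 after dsHMGB1, -1.56 after LPS and -1.70 after LPS/IFNγ, with 5, 6 and 6 of 7 called lower. The mismatch repair genes fell in all 3. Msh6, which encodes a mismatch recognition protein, measured 909.7, 1034 and 1112 in PBS and 796, 854 and 955 after frHMGB1, against 325, 365 and 369 after dsHMGB1, 259.8, 263 and 225 after LPS and 227, 199 and 200.2 after LPS/IFNγ. The stimulated libraries lay well below the rest, with log2 fold changes of -1.53 ± 0.12 (adjusted p = 1.5e-07), -2.03 ± 0.13 (adjusted p = 5.09e-09) and -2.29 ± 0.13 (adjusted p = 1.79e-09). Pms2, which cuts the strand that carries the error, fell, with log2 fold changes of -0.83, -1.55 and -1.70. Exo1 was rare throughout, at 40.7, 34.1 and 37.5 in PBS, 42.8, 33.7 and 29.1 after frHMGB1, 16.0, 14.7 and 6.72 after dsHMGB1, 2.59, 19.4 and 5.88 after LPS and 0, 3.16 and 6.4 after LPS/IFNγ. The LPS/IFNγ values stood for 0, 3 and 7 raw counts, so the fitted change of -3.51 ± 0.66 (adjusted p = 0.00086) is called but its size is poorly known.

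Brca1, which acts in recombination repair of double-strand breaks and stalled forks, fell from 207, 214 and 91.4 in PBS to 33.8, 58.0 and 37.8 after dsHMGB1, 28.4, 12.0 and 29.4 after LPS and 24.4, 18.9 and 8.23 after LPS/IFNγ, with log2 fold changes of -1.98 ± 0.43 (adjusted p = 0.0018), -2.87 ± 0.46 (adjusted p = 0.000115) and -3.33 ± 0.46 (adjusted p = 3.62e-05). Lig1, the ligase that joins Okazaki fragments, fell, with log2 fold changes of -1.21, -1.56 and -1.47. Fen1, the nuclease that trims Okazaki fragments, measured 107, 90.2 and 78.5 in PBS, 78.3, 75.6 and 66.4 after dsHMGB1, 49.1, 52.3 and 66.2 after LPS and 125, 108 and 163 after LPS/IFNγ, a fall after LPS (log2 fold change -0.73 ± 0.25, adjusted p = 0.00975) and values above the PBS mean after LPS/IFNγ that were not called (log2 fold change 0.51 ± 0.22, adjusted p = 0.0762). Rpa2, a subunit of the single-strand binding protein RPA, was called lower after LPS/IFNγ (log2 fold change -0.69 ± 0.29, adjusted p = 0.0304), but that rests on PBS replicate 3, at 526, 517 and 1203 in PBS against 499.5, 449 and 439. Without that library the LPS/IFNγ change was -0.24 (adjusted p = 0.128) and the dsHMGB1 change 0.62 (adjusted p = 0.000775).

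In chromatin assembly, 2 of 3 genes fell after dsHMGB1, 1 after LPS and all 3 after LPS/IFNγ. Chaf1a, the large subunit of the histone chaperone CAF-1 that follows the fork, measured 334, 388 and 224 in PBS, 132, 128 and 162 after dsHMGB1, 101, 77.7 and 109 after LPS and 70.0, 91.6 and 64.0 after LPS/IFNγ, with log2 fold changes of -1.17 ± 0.22 (adjusted p = 0.000682), -1.73 ± 0.23 (adjusted p = 1.73e-05) and -2.08 ± 0.23 (adjusted p = 3.57e-06). Its partner subunit Chaf1b fell after dsHMGB1 (log2 fold change -0.69 ± 0.24, adjusted p = 0.0142) and LPS/IFNγ (log2 fold change -0.97 ± 0.24, adjusted p = 0.00105), while its LPS change was not called (log2 fold change -0.03 ± 0.24, adjusted p = 0.761). Without PBS replicate 3, its highest PBS library, the changes of Chaf1b after dsHMGB1, LPS and LPS/IFNγ were -0.35 (adjusted p = 0.0243), 0.28 (adjusted p = 0.0581) and -0.67 (adjusted p = 0.00018). Uhrf1 stood at 90.7, 95.4 and 122 after dsHMGB1, 98.2, 86.7 and 97.0 after LPS and 81.7, 73.7 and 78.6 after LPS/IFNγ, and only the last was called (log2 fold change -0.75 ± 0.31, adjusted p = 0.0404). Without PBS replicate 3 the changes of Uhrf1 were -0.71 (adjusted p = 0.000949), -0.86 (adjusted p = 0.000191) and -1.15 (adjusted p = 7.12e-06).

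The calls over PBS were refitted 15 times, each without 1 library. Those lost in several of these refits were 12 of 15 for Cdc6 after LPS/IFNγ, 11 of 15 for Uhrf1 after LPS/IFNγ, 10 of 15 for Gins1 and 10 of 15 for Exo1 after dsHMGB1, 10 of 15 for Tyms after frHMGB1, 8 of 15 for Pole and 7 of 15 for Rfc5 after LPS, 4 of 15 for Gins2 and 4 of 15 for Rpa2 after LPS/IFNγ, and 2 of 15 for Gins1 and 2 of 15 for Exo1 after LPS. The adjusted p in these refits reached at most 0.191 and the log2 fold changes kept their sign. A single library decided 6 further calls. Without PBS replicate 1 the LPS rise of Mcm6 was 0.23 (adjusted p = 0.0664), without PBS replicate 2 the LPS/IFNγ change of Pole was -0.97 (adjusted p = 0.0647), without LPS replicate 1 the LPS change of Fen1 was -0.67 (adjusted p = 0.0527), and without LPS/IFNγ replicate 1 the LPS/IFNγ change of Rfc5 was -0.39 (adjusted p = 0.0673). Without dsHMGB1 replicate 1 the dsHMGB1 change of Mcm4 was -0.40 (adjusted p = 0.0523), and without replicate 2 that of Chaf1b was -0.62 (adjusted p = 0.0574). Every other call over PBS was made in all 15 refits.

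Leaving out PBS replicate 3 gave similar counts, with 24 genes called lower and 3 higher after dsHMGB1, 23 and 5 after LPS and 25 and 4 after LPS/IFNγ, where 29% and 29.8%, 38.3% and 32.9%, and 34.4% and 33.3% of all genes tested were called lower and higher. Genes called in addition without that library were Pola1, Pole, Uhrf1 and, as higher, Rpa2 after dsHMGB1, Mcm5 and Uhrf1 after LPS and Pola1 after LPS/IFNγ.

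The stimulations were then compared with each other. Between dsHMGB1 and LPS, 6 of the 33 genes were lower and 6 higher after dsHMGB1, where 10.6% and 15.8% of all tested genes were called. Of the protein-coding genes tested, 12.6% and 12.3% were called. With library totals as the only scaling, 4 of the 33 genes were lower and 14 higher. Without PBS replicate 3, 7 were lower and 11 higher, where 23.3% and 25.6% of all tested genes were called. The genes lower after dsHMGB1 were Tyms (-1.42 ± 0.15, adjusted p = 1.44e-05), Pcna (-1.31 ± 0.10, adjusted p = 4.09e-07), Cdt1 (-0.97 ± 0.12, adjusted p = 5.9e-05), Mcm6 (-0.79 ± 0.09, adjusted p = 6.31e-05), Chaf1b (-0.66 ± 0.24, adjusted p = 0.0436) and Gins2 (-0.50 ± 0.17, adjusted p = 0.0491). The genes higher after dsHMGB1, which had fallen further after LPS, were Pms2, Pold1, Mcm3, Prim1, Rrm1 and Msh6, by 0.50 to 0.72 on the log2 scale. Of these calls, Gins2 was lost in 10 of 15 refits without 1 library, Chaf1b in 9 of 15, Prim1 in 6 of 15 and Pms2 in 3 of 15, with an adjusted p of at most 0.162. Mcm7 differed by -0.04 ± 0.15 (adjusted p = 0.954), 95% confidence interval -0.33 to 0.25.

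Compared with LPS/IFNγ, dsHMGB1 left 16 of the 33 genes higher and 5 lower, at a median of 0.58, where 16.5% of all tested genes were higher and 16.7% lower. With library totals as the only scaling, 22 were higher and 2 lower. The 5 lower genes were Pcna (-1.31 ± 0.10, adjusted p = 1.02e-07), Cdc6 (-1.10 ± 0.26, adjusted p = 0.00411), Fen1 (-0.85 ± 0.23, adjusted p = 0.0116), Tyms (-0.56 ± 0.15, adjusted p = 0.00935) and Cdt1 (-0.40 ± 0.12, adjusted p = 0.0185). Among the higher genes Gins1 (1.44 ± 0.37, adjusted p = 0.00505), Brca1 (1.35 ± 0.47, adjusted p = 0.0425) and Pold1 (1.33 ± 0.14, adjusted p = 3.5e-06) differed the most, and Mcm10 was also higher (0.66 ± 0.17, adjusted p = 0.00823). Of these, Brca1 was lost in 8 of 15 refits without 1 library, Cdt1 in 4 of 15, Fen1 without dsHMGB1 replicate 3 (-0.76, adjusted p = 0.0523) or LPS/IFNγ replicate 3 (-0.63, adjusted p = 0.0755) and Tyms without LPS/IFNγ replicate 1 (-0.45, adjusted p = 0.0538), and without dsHMGB1 replicate 3 or LPS/IFNγ replicate 3 the lower genes numbered 3.

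LPS/IFNγ against LPS gave 9 genes lower and 2 higher, where 9.36% and 16.3% of all tested genes were called. Of the protein-coding genes tested, 11.2% and 12.5% were called. The genes higher after LPS/IFNγ were Cdc6 (1.42 ± 0.30, adjusted p = 0.00105) and Fen1 (1.25 ± 0.25, adjusted p = 0.00121). Of the lower genes, Gins1 (-1.23 ± 0.37, adjusted p = 0.023), Mcm6 (-1.07 ± 0.09, adjusted p = 3.09e-06), Chaf1b (-0.94 ± 0.24, adjusted p = 0.00555) and Tyms (-0.86 ± 0.15, adjusted p = 0.00069) differed the most, and Mcm5, Pold1, Mcm10, Cdt1 and Rfc4 were lower by log2 fold changes of -0.52 to -0.68. The difference in Pcna was 0.01 ± 0.10 (adjusted p = 0.774), 95% confidence interval -0.19 to 0.20, and that in Rfc3 -0.06 ± 0.19 (adjusted p = 0.942), 95% confidence interval -0.43 to 0.31, neither of which passed the test. Of the lower genes, Mcm10 was lost in 5 of 15 refits without 1 library and Gins1 and Rfc4 each in 3 of 15, with an adjusted p of at most 0.096.

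**Figure D4:**
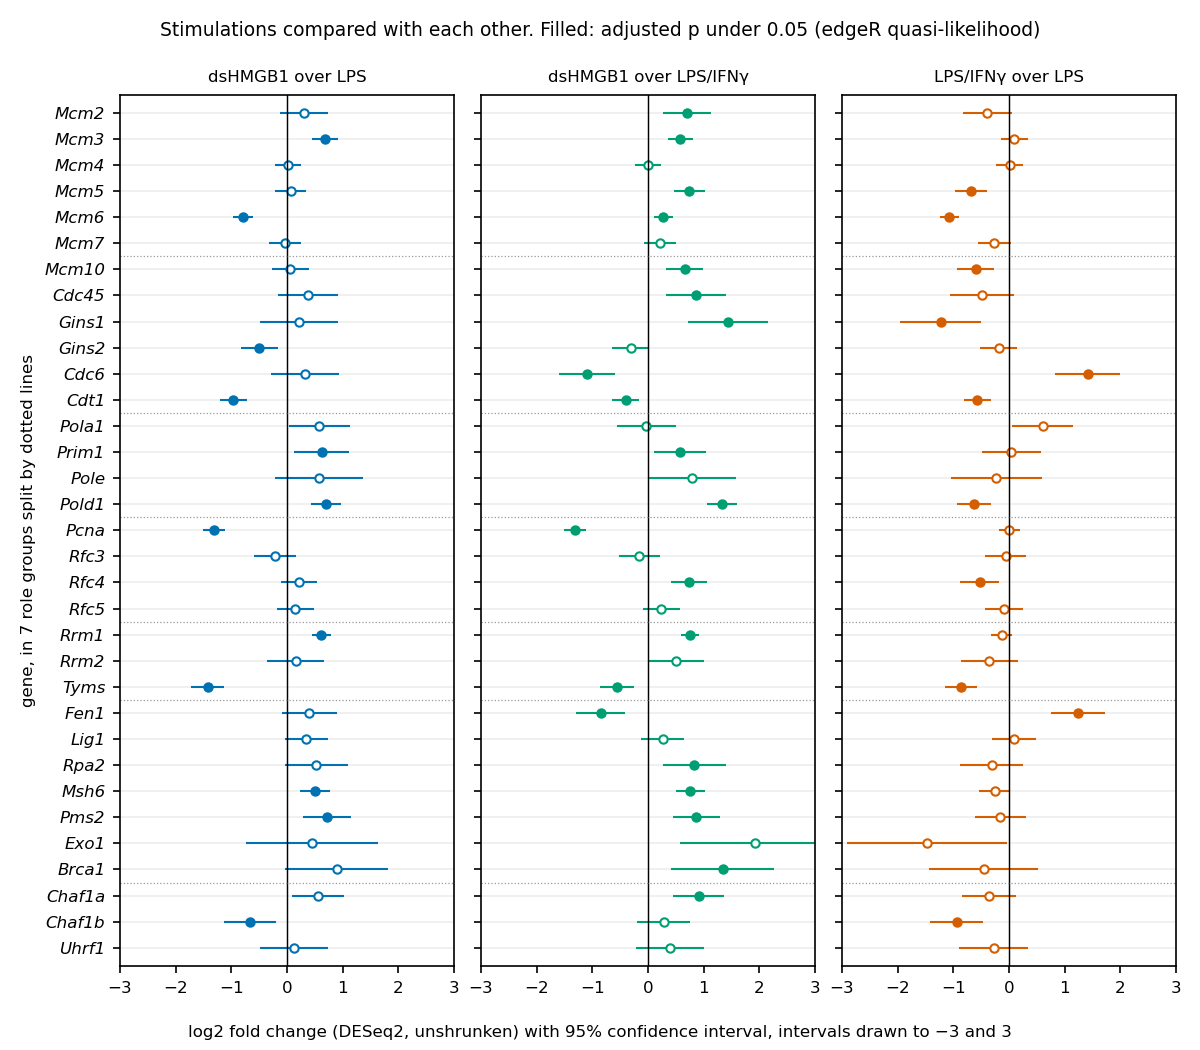
Log2 fold change (x axis) with 95% confidence interval of each of the 33 genes (rows, in 7 role groups) between pairs of stimulations; filled points passed edgeR's test at an adjusted p under 0.05. Tyms and Pcna lie far to the left in dsHMGB1 over LPS, and Cdc6 and Fen1 are the filled points to the right in LPS/IFNγ over LPS.

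The wider machinery was read from 70 further genes in 5 lists of origin factors, polymerase and loader subunits, nucleotide metabolism, repair and chromatin factors. Of these, 34 were lower and 9 higher after dsHMGB1, 40 and 10 after LPS, and 45 and 13 after LPS/IFNγ, with medians of -0.54, -0.81 and -0.94. Of all tested genes, 24.2%, 36.2% and 31.2% were lower and 23.3%, 26.7% and 29% higher in the same order. After frHMGB1, 0 of the 70 were called by edgeR, 1 was called higher by DESeq2, and 3 had an unadjusted p under 0.05 (2 lower and 1 higher). Of the 16919 genes tested, 2745 had such a p in that comparison. The genes with the lowest LPS/IFNγ change in 4 of these lists were Gmnn, the inhibitor of CDT1 (log2 fold change -4.12 ± 0.44, adjusted p = 3.34e-06), Dscc1 of an alternative clamp loader (log2 fold change -4.21 ± 0.88, adjusted p = 0.0011), the dUTPase gene Dut (log2 fold change -2.26 ± 0.41, adjusted p = 0.00022) and the maintenance methyltransferase Dnmt1 (log2 fold change -2.42 ± 0.25, adjusted p = 1.77e-06).

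The wider lists also held genes that rose. Timeless, a fork protection factor, rose by 3.56, 3.99 and 3.64 on the log2 scale after dsHMGB1, LPS and LPS/IFNγ. Dck, the deoxycytidine kinase of nucleotide salvage, rose by 3.06, 3.28 and 3.30, and Samhd1, a dNTP hydrolase that restricts viruses in myeloid cells, by 2.11, 2.99 and 4.31. Mcmbp, a binding partner of MCM proteins, rose by 0.91, 1.65 and 2.48, and the origin recognition subunit Orc4 by 1.00, 1.12 and 1.53. Pola2, the second subunit of polymerase α, rose by 0.39, 0.66 and 2.03, whereas Wdhd1, which links the helicase to polymerase α, fell after dsHMGB1 (-1.35) and rose after LPS/IFNγ (1.66). The remaining genes called higher in a stimulation were Asf1a, Mcm9, Fanca, Donson, Pold3, Usp1, Dbf4 and Slbp, at log2 fold changes of 0.35 to 1.56 where called.

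Of 14 E2F factors and cycle markers, 4, 5 and 4 were lower and 5, 6 and 6 higher after dsHMGB1, LPS and LPS/IFNγ, where 24.2%, 36.2% and 31.2% of all tested genes were lower and 23.3%, 26.7% and 29% higher. Among the genes that fell were E2f1 (-1.43, -1.66 and -2.29) and E2f2 (-4.47, -5.73 and -3.88). E2f8 (2.70, 3.04 and 3.66), the pocket protein gene Rbl1 (2.67, 3.19 and 2.76) and Mki67, whose protein Ki-67 is a common marker of cycling cells (3.25, 3.81 and 3.83), rose. These genes were named after their values had been seen, and not every gene called lower is named. Of the 14, 5 had a log2 fold change below -1 after LPS, and 3 had one below -2 after LPS/IFNγ. E2f3 and E2f4 also rose in all 3, and Top2a, a topoisomerase of S and G2 phase, fell after LPS (log2 fold change -1.11 ± 0.21, adjusted p = 0.000245) and LPS/IFNγ (log2 fold change -0.58 ± 0.20, adjusted p = 0.0188).

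Some counts may hold reads of other genes, since the strand setting of the counting is not given in the sources used here. Gins2 shares 67.3% of its exon bases with Gse1 on the opposite strand and Chaf1a 52.5% with Ubxn6. After LPS/IFNγ the log2 fold change over PBS was -0.43 for Gse1 and -0.38 for Gins2, and 0.11 for Ubxn6 and -2.08 for Chaf1a. After dsHMGB1 and LPS it was 0.13 and 0.36 for Gse1, and -0.69 and -0.19 for Gins2. How far the reads of Gse1 enter the Gins2 count was not tested. Fen1 shares 78.8% with the antisense gene Gm10143, which had 25 counts in all. It also shares 5.37% with Tmem258 on the opposite strand, which had 36067 counts against 1411 for Fen1. Among other overlaps on opposite strands, Rfc4 shares 12.65% with Eif4a2 (2077 and 70080 counts) and Rfc5 10.69% with Wsb2 (13413 and 173190 counts). The part of these neighbours in the counts was not tested. The processed pseudogene Pcna-ps2 took 8424 counts against 229337 for Pcna, measured 37.8 to 42.8 normalized counts after frHMGB1 against 544 to 706 in PBS, and adding the 2 genes gave log2 ratios to PBS of 0.085 after frHMGB1, -0.11 after dsHMGB1, 1.13 after LPS and 1.20 after LPS/IFNγ.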

How the data were processed

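RNA-seq libraries of pooled mouse BMDMs, 3 for each of 5 conditions, were analysed from a gene-level table. The deposited counts were whole, unnormalized read counts per Ensembl gene. Per the labels and methods, the authors made them from stranded mRNA libraries read in pairs on an Illumina NextSeq, using CASAVA, STAR, DESeq2 and the genome build GRCm38. For the counting program, its annotation and its strand setting, the entry is: not given in the sources used here. Groups came from the labels. The 33 genes, their role groups and the wider lists were chosen with earlier results of these data known, and support nothing beyond their values.

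Identifiers were matched to GENCODE M21 (GRCm38, 51661 of 51763). Genes were filtered with filterByExpr (minimum count 10, minimum total 15), scaled by TMM and tested in edgeR 4.0.16 (R 4.3.3) with its quasi-likelihood test in 1 fit of all 15 libraries, with Benjamini-Hochberg adjustment. Normalized counts, SEs and the log2 fold changes with all libraries came from DESeq2 1.42.0. The log2 fold changes of refits without a library and with library totals as the only scaling came from edgeR. TPM used merged exon lengths. The fit was tested on simulated data in which a small set of genes changed after dsHMGB1 alone and no library stood apart. That setting is simpler than these data and cannot bear on the scaling shifts or on PBS replicate 3. Values are given in every library for, in each role group, the genes with the lowest and the highest LPS/IFNγ change, and for genes called higher than PBS or in opposite directions. Of the wider lists, genes called higher and the lowest gene of each list were named. The lowest gene of 1 list is not reported here. Replicate numbers did not pair the libraries. Alternatives were other tests, scalings, filters, gene sets, fits by pair, a replicate block and leaving out each library.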

Additional observations from a re-analysis of the deposited data

How the results depend on the processing

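The direction and call of most changes did not depend on the setting, but some settings kept fewer of the lower calls. Fits of each pair of conditions alone kept 19 of 22 lower calls after dsHMGB1, 16 of 22 after LPS and 20 of 27 after LPS/IFNγ. With no filter, 19, 20 and 21 were kept in the same order, and 17 of 23 for dsHMGB1 over frHMGB1. The count of genes called higher after frHMGB1 (1) became 0 with RLE scaling, with no filter, with a filter of 1 CPM in 3 libraries, with protein-coding genes alone, with each pair of conditions fitted alone and with the replicate block. With library totals as the only scaling, which moved the median log2 fold change of all genes by -0.35 after dsHMGB1, -0.63 after LPS and -0.66 after LPS/IFNγ, the genes higher after LPS/IFNγ were 2, those higher in dsHMGB1 over LPS 14 and those lower in dsHMGB1 over LPS/IFNγ 2, and of the 70 wider genes 8 were higher after LPS/IFNγ. In the same setting Mcm6 after LPS turned to -0.36 and Mcm10 after LPS/IFNγ to -0.020. DESeq2 called 1 wider gene higher after frHMGB1. The letters GCGGGAA were in 9 of 28 windows with the 250 bases before the start alone, against 15 with all 300. The cause of these shifts was not tested, apart from the scaling itself.

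Leaving out each library in turn gave, lower and higher, 0 and 0 to 3 genes after frHMGB1, 19 to 24 and 2 to 3 after dsHMGB1, 19 to 23 and 4 to 5 after LPS, and 23 to 26 and 4 to 5 after LPS/IFNγ. The ranges were 20 to 26 and 2 to 3 for dsHMGB1 over frHMGB1, 4 to 7 and 4 to 11 for dsHMGB1 over LPS, 3 to 5 and 12 to 24 for dsHMGB1 over LPS/IFNγ, and 6 to 12 and 2 to 3 for LPS/IFNγ over LPS. For the 70 wider genes, 0 to 1 were higher after frHMGB1. The highest counts of 11 and 24 came without PBS replicate 3, where 25.6% and 27.9% of all tested genes were called higher. The count of 3 after frHMGB1 also came without that library, where 8.41% of all tested genes were called higher. With the replicate number as a block, 20 genes were lower and 2 higher after dsHMGB1, 21 and 5 after LPS and 24 and 4 after LPS/IFNγ. Libraries with the same number did not deviate together (1 of 30 pairs correlated above 0.1), so the number is no pairing. Genes with few counts, Exo1 above all, limit the precision.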
